A study of Homo sapiens with 6 samples.

Results

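The metalloproteinases and their inhibitors were followed in ES-2, SKOV-3 and OVCAR-3 cells, 3 established human lines of ovarian cancer. They were taken as every gene whose annotated symbol starts with MMP, ADAM or TIMP and a digit, or with ADAMTS, without antisense and pseudogene symbols. This gave 47 of the 14884 genes named on the array, on 51 probe sets: 19 MMP genes, 19 ADAM genes, 5 ADAMTSL genes and 4 TIMP genes. A probe set is the group of probes on an array that together measure a transcript. Each line had been transfected with the microRNA miR-135a-3p and, as the control, with miR-blank, and each combination was measured on 1 Affymetrix whole-transcript array, which gives 6 arrays. Every group went through a transfection, and no untransfected cells were analysed here. Each line is a cultured tumour population and not a tissue, and the dose, the time of harvest and the form of the transfected material are not stated in the labels.

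Matrix metalloproteinases (MMPs) are zinc-dependent enzymes, secreted or held at the cell surface, that cut collagens and other proteins of the extracellular matrix. ADAM proteins are membrane proteins, many of which act as sheddases that release the outer part of growth factors, cytokines and receptors, while others lack a working catalytic site. ADAMTSL proteins resemble the secreted ADAMTS proteases but have no catalytic domain. The TIMP proteins bind the active sites of these enzymes and block them, so the balance of both groups sets how much matrix is cut. In ovarian cancer they have been studied for their part in invasion of the peritoneal lining.

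The transfected microRNA is shown with its seed, bases 2 to 8 from the 5′ end, in capitals, since the seed is the stretch that pairs with target transcripts. RefSeq places its 22 bases at chr3:52294232-52294253 of GRCh38.p14, on the minus strand. Target sites in the transcripts of the family were not analysed here.
hsa-miR-135a-3p: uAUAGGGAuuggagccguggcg

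MIR135A1, the hairpin gene that carries this sequence, read 11.58 to 12.57 on the miR-135a-3p arrays and 1.75 to 2.26 on the miR-blank arrays, so it followed the labels in all 3 lines. Values are deposited log2 signals, on which a difference of 1 is a 2-fold change, and the array medians lay between 4.16 and 4.23. The file gives no detection calls, so a signal near or below the median is not shown to be above background. Signals are read for each gene across arrays and not between genes. Epithelial and ovarian markers were also read in each line, and the identity of the lines was not tested with them. Of 5 named epithelial markers, 2 had a mean of at least 5, KRT18 at 9.36 to 10.47 and KRT8 at 5.29 to 6.75. EPCAM read 3.78 to 4.32 on all arrays and so lay near the median in every line. CLDN4 read 3.56 to 5.25 and KRT19 4.7 to 5.2. Of the ovarian markers, WT1 read 5.59 to 5.95 in ES-2 and OVCAR-3 and 6.14 to 7.15 in SKOV-3. MSLN read 5.19 to 5.53 in ES-2 and OVCAR-3 and 5.62 to 7.02 in SKOV-3. PAX8 was above 5 in SKOV-3 alone, with 8.12 after miR-135a-3p and 8.80 after miR-blank. Each of these markers was thus brightest in SKOV-3. In RNA of whole cultures, fewer cells that make a transcript and less of it per cell cannot be told apart.

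Of the 47 genes, 24 had a mean of at least 5 over the 6 arrays and were tested with the other genes above that level, 8620 in all. These were 8 MMP, 10 ADAM, 4 ADAMTSL and 2 TIMP genes. The line mean, over the 2 arrays of a line, was at least 5 in all 3 lines for 16 of them, in 2 lines for 5 and in 1 line for 3, which were MMP1, MMP16 and ADAMTSL1. Just inside the limit were ADAMTSL1 with a mean of 5.07 and ADAMTSL4 with 5.11, and just outside it MMP11 with 4.99, ADAM33 with 4.89 and MMP19 with 4.73. The remaining 23 genes were dim. They include the collagenases MMP8 and MMP13, the stromelysins MMP10 and MMP11, and ADAM2, ADAM18, ADAM20, ADAM21, ADAM29 and ADAM30, which are known mainly from testis and sperm. MMP2, MMP3, MMP7 and MMP9 and 19 ADAMTS proteases were among 24 genes of the family that were not analysed here.

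The first question was which members differ after transfection with miR-135a-3p. No member passed the test over the 3 lines. limma with the cell line as a block called 0 of 24 members, and over all 8620 genes it called 1, MIR135A1, which is 0.0116%. At an unadjusted p under 0.05 there were 2 of the 24 members, MMP16 and ADAM22, beside 251 of the 8620 genes tested. In 4 members the difference had 1 sign throughout the 3 lines, lower in each (MMP16, MMP17, ADAM22 and ADAMTSL5), against 23.0% of all genes tested. Within single lines, 0 members were past 2-fold in ES-2 cells, 1 in OVCAR-3 cells and 5 in SKOV-3 cells, and whether the lines differ in this was not tested. Over all genes tested, 0.673%, 0.673% and 4.0% were past 2-fold in these lines.

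The median difference over the 24 members was −0.07 in ES-2 cells, −0.06 in OVCAR-3 cells and −0.12 in SKOV-3 cells, beside −0.0057, −0.05 and 0.02 over all genes tested. The spread over members, as an SD, was 0.19, 0.56 and 0.80 in the same lines, beside 0.30, 0.30 and 0.48 over all genes. The OVCAR-3 spread rests largely on TIMP1, with −2.28, since MMP16 came next in size with −0.69. With 1 array per line and transfection, a difference within a line has no test, and it is given as a size. Nothing in the labels says whether the arrays came from separate cultures. The largest differences belonged to the inhibitor TIMP1, the collagenase MMP1 and the membrane proteins ADAM12, ADAM19 and ADAM23, and they are described by role.

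**Figure D1:**
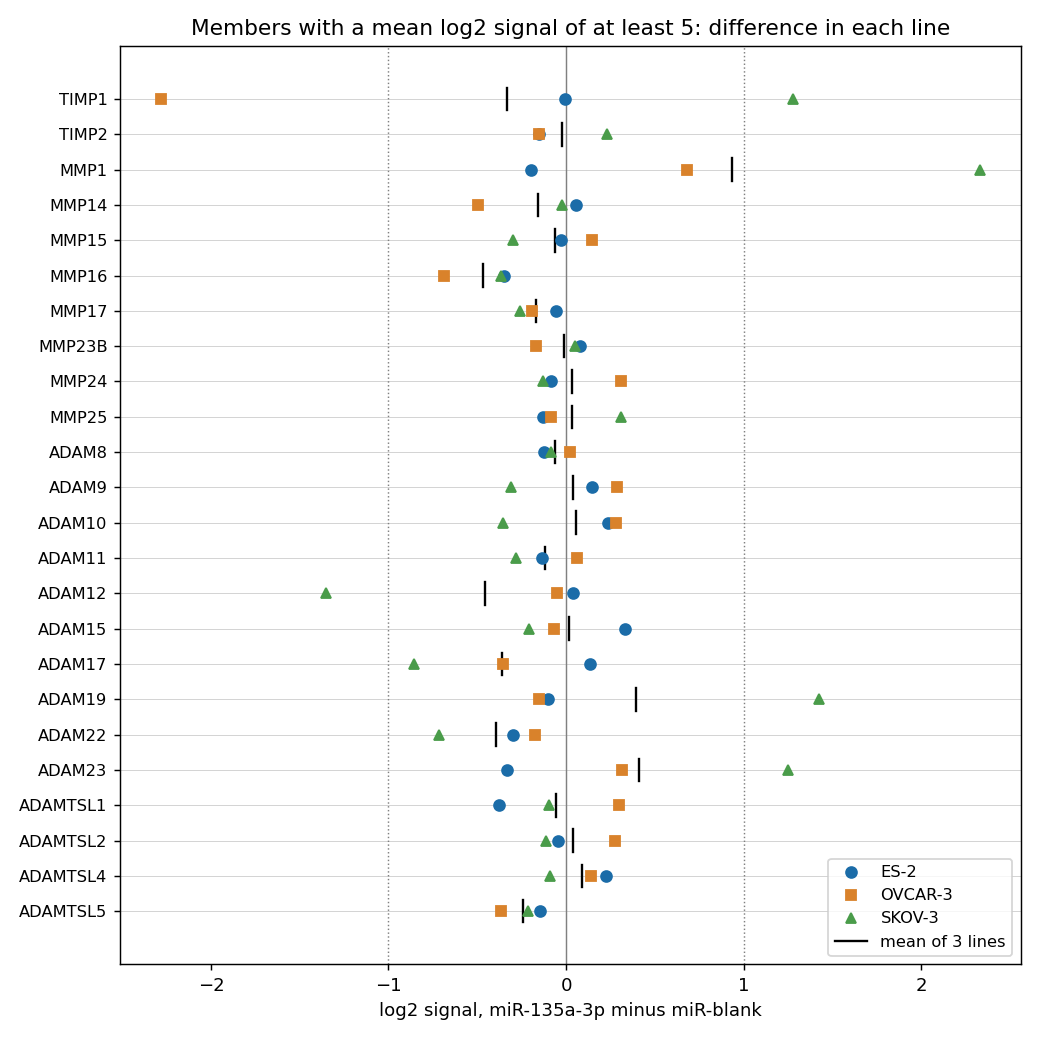
Difference in log2 signal, miR-135a-3p minus miR-blank, for the 24 members with a mean of at least 5 (rows), with 1 point per cell line, a bar at the mean of the 3 lines and dotted lines at 2-fold. Most points lie between the dotted lines, while TIMP1 has −2.28 in OVCAR-3 cells and 1.28 in SKOV-3 cells, and MMP1, ADAM12, ADAM19 and ADAM23 are past 2-fold in SKOV-3.

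Among the inhibitors, TIMP1, a secreted inhibitor of most MMPs, gave a different value of the difference in each line. In ES-2 it read 10.59 after miR-135a-3p and 10.60 after miR-blank. In OVCAR-3 it read 5.35 after miR-135a-3p and 7.63 after miR-blank. In SKOV-3 it read 10.71 after miR-135a-3p and 9.43 after miR-blank. The miR-135a-3p signal was thus level with miR-blank in ES-2, lower in OVCAR-3 and higher in SKOV-3, and the ranges of the transfection groups overlap. The OVCAR-3 difference of −2.28 was the lowest of the 8620 genes in that line, and the SKOV-3 difference of 1.28 stood at place 99 from the highest. Over the lines the mean difference was −0.33 ± 1.80 (SD, n = 3), with a limma adjusted p of 0.999. Without OVCAR-3 the mean was 0.64, and without SKOV-3 it was −1.14.

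TIMP2, which blocks MMPs and also takes part in the activation of pro-MMP2 by MMP14, had small differences. It read 8.08 after miR-135a-3p and 8.24 after miR-blank in ES-2 cells. Its signal in OVCAR-3 was 7.22 after miR-135a-3p and 7.37 after miR-blank. In SKOV-3 it read 9.06 after miR-135a-3p and 8.83 after miR-blank. The mean difference was −0.03 ± 0.22 (SD, n = 3; limma adjusted p of 1.0), so no change passed and the spread over lines was wider than the mean. TIMP3, which binds to the matrix and also blocks ADAM17, was dim on average and has 2 probe sets. In the order ES-2, OVCAR-3, SKOV-3, its brighter probe set read 6.65, 3.55 and 3.08 after miR-135a-3p and 6.58, 3.59 and 3.59 after miR-blank. Its other probe set read 5.37, 3.45 and 2.93 after miR-135a-3p and 5.10, 3.69 and 3.07 after miR-blank. Both probe sets were above the array median in ES-2 and below it in the other lines. TIMP4 read 3.44, 3.76 and 3.61 after miR-135a-3p and 3.64, 3.75 and 3.64 after miR-blank in that order of lines, and was below the array median everywhere.

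Among the collagenases, MMP1, which cuts fibrillar collagen, was the only tested member. It read 12.35 after miR-135a-3p and 12.55 after miR-blank in ES-2. In OVCAR-3 cells the signal was 3.04 after miR-135a-3p and 2.36 after miR-blank. In SKOV-3 it read 5.03 after miR-135a-3p and 2.70 after miR-blank. MMP1 was thus near the top of the array scale in ES-2 and below the array median on both OVCAR-3 arrays and on the SKOV-3 miR-blank array, which leaves the size of those differences uncertain. The SKOV-3 difference of 2.33 stood at place 16 from the highest of 8620. The mean difference was 0.94 ± 1.28 (SD, n = 3; limma adjusted p of 0.999), and it was 0.24 without SKOV-3 and 1.5 without ES-2.

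MMP1 lies in a cluster of MMP genes, which RefSeq orders as MMP7, MMP20, MMP27, MMP8, MMP10, MMP1, MMP3, MMP12 and MMP13. Its named neighbours were dim on every array, with the highest signal 3.96, for MMP20 in OVCAR-3 after miR-135a-3p. In ES-2, where MMP1 was brightest, they read between 2.29 and 3.87. MMP13, a collagenase, read 2.24 after miR-135a-3p and 3.29 after miR-blank in SKOV-3, the 1 difference past 2-fold (−1.05) among the 23 dim members in any line. Both of these signals were below the array median. The differences of the dim members ran between −0.33 and 0.60 in ES-2, between −0.45 and 0.46 in OVCAR-3 and between −1.05 and 0.39 in SKOV-3.

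**Figure D2:**
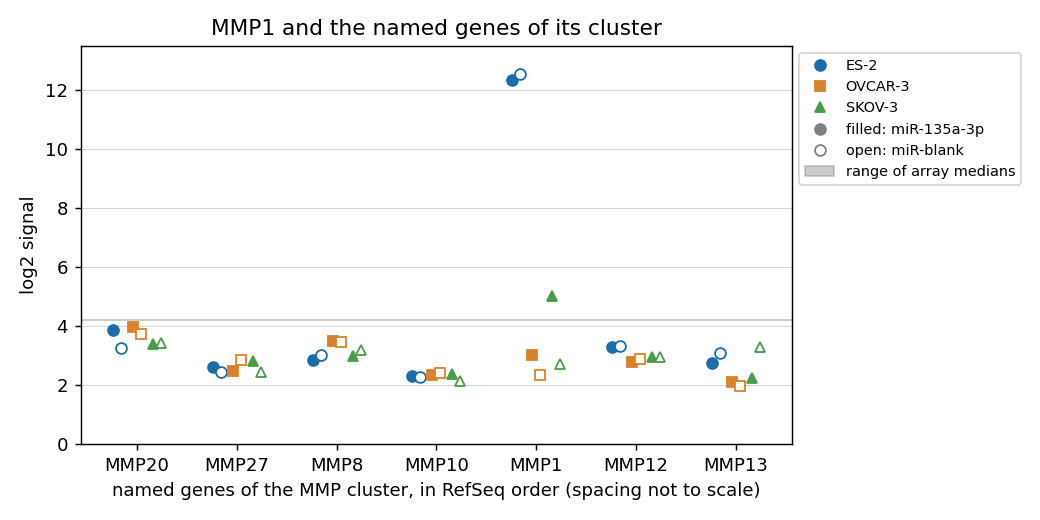
Log2 signal of MMP1 and the other named genes of its cluster (x axis, in RefSeq order and not to scale) on the 6 arrays, with colour and shape for the line, filled points for miR-135a-3p, open points for miR-blank and a band for the array medians. Only MMP1 rises above the band, at 12.35 and 12.55 in ES-2 and at 5.03 in SKOV-3 after miR-135a-3p.

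Of the membrane-type MMPs, which act at the cell surface, MMP16 was lower after miR-135a-3p in every line. It read 7.22 after miR-135a-3p and 7.57 after miR-blank in ES-2 cells. OVCAR-3 cells gave 4.21 after miR-135a-3p and 4.90 after miR-blank, and in SKOV-3 it read 4.59 after miR-135a-3p and 4.96 after miR-blank. The differences were −0.35, −0.69 and −0.36, a mean of −0.47 ± 0.19 (SD, n = 3), with an unadjusted limma p of 0.015 and an adjusted p of 0.999. It was the only tested member with the same sign in all lines and at least 0.2 in each. On the OVCAR-3 miR-135a-3p array it lay below the array median. MMP14, the main cell-surface collagenase, read 8.55 after miR-135a-3p and 8.49 after miR-blank in ES-2 cells. In OVCAR-3 it read 6.90 after miR-135a-3p and 7.40 after miR-blank, and in SKOV-3 it read 4.15 after miR-135a-3p and 4.17 after miR-blank. These pairs lie close together against the distance between the lines, and the mean difference was −0.16 ± 0.30 (SD, n = 3; limma adjusted p of 0.999). MMP15, MMP17, MMP24 and MMP25 had mean differences of −0.06, −0.17, 0.03 and 0.03. On their brightest probe sets, no line had a difference of more than 0.31 in size for any of them. Other probe sets reached 0.33 in OVCAR-3 for MMP24 and 0.45 in SKOV-3 for MMP25.

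Among the ADAM proteins with a catalytic site, ADAM12 and ADAM19 differed by more than 2-fold in SKOV-3, in opposite directions. ADAM12, known from muscle fusion and from tumours, read 8.41 after miR-135a-3p and 8.37 after miR-blank in ES-2 cells. Its signal in OVCAR-3 was 3.90 after miR-135a-3p and 3.95 after miR-blank, and in SKOV-3 it read 4.74 after miR-135a-3p and 6.09 after miR-blank. Its differences were 0.04, −0.05 and −1.35, with a mean of −0.46 ± 0.78 (SD, n = 3; limma adjusted p of 0.999), and the mean without SKOV-3 was −0.0067. The OVCAR-3 signals were below the array median. ADAM19, a sheddase of neuregulins, read 6.86 after miR-135a-3p and 6.96 after miR-blank in ES-2 cells. In OVCAR-3 cells the signal was 5.06 after miR-135a-3p and 5.21 after miR-blank, and in SKOV-3 it read 7.50 after miR-135a-3p and 6.07 after miR-blank. Its differences were −0.10, −0.15 and 1.42, with a mean of 0.39 ± 0.90 (SD, n = 3; limma adjusted p of 0.999), and the mean turned to −0.13 without SKOV-3.

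The sheddases ADAM9, ADAM10 and ADAM17, which many cell types use, stayed within 2-fold in every line. ADAM17, which releases TNF and EGF receptor ligands, had differences of 0.13, −0.36 and −0.86 in the order ES-2, OVCAR-3, SKOV-3, on signals between 7.51 and 8.45. ADAM10, which cuts Notch receptors, had 0.24, 0.28 and −0.35, and ADAM9 had 0.15, 0.28 and −0.31. In these 3 genes SKOV-3 had the lowest difference, and the mean differences of −0.36, 0.05 and 0.04 had limma adjusted p of 0.999. ADAM15 read 8.27 after miR-135a-3p and 7.93 after miR-blank in ES-2 cells. OVCAR-3 cells gave 7.66 after miR-135a-3p and 7.72 after miR-blank, and in SKOV-3 it read 6.40 after miR-135a-3p and 6.61 after miR-blank, a mean difference of 0.02 ± 0.28 (SD, n = 3; limma adjusted p of 1.0). ADAM8 read between 5.46 and 5.61 on all arrays, the narrowest range among the tested members. ADAM8, ADAM11 and MMP23B had differences between −0.28 and 0.08 in all lines.

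ADAM22 and ADAM23 lack a working catalytic site and are known as receptors of the secreted protein LGI1 in the brain. ADAM23 read 6.93 after miR-135a-3p and 7.27 after miR-blank in ES-2 cells. In OVCAR-3 it read 3.41 after miR-135a-3p and 3.09 after miR-blank, and in SKOV-3 it read 7.17 after miR-135a-3p and 5.92 after miR-blank. It was thus below the array median in OVCAR-3, and past 2-fold, with 1.25, in SKOV-3. The mean difference was 0.41 ± 0.80 (SD, n = 3; limma adjusted p of 0.999), and without SKOV-3 it was −0.0085. ADAM22 read 4.73 after miR-135a-3p and 5.03 after miR-blank in ES-2 cells. Its signal in OVCAR-3 was 5.42 after miR-135a-3p and 5.60 after miR-blank, and in SKOV-3 it read 5.30 after miR-135a-3p and 6.02 after miR-blank. It was lower after miR-135a-3p in every line, by a mean difference of −0.40 ± 0.28 (SD, n = 3), with an unadjusted limma p of 0.0425 and an adjusted p of 0.999.

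ADAMTSL1 read 6.89 after miR-135a-3p and 7.27 after miR-blank in ES-2 cells. In OVCAR-3 cells the signal was 4.26 after miR-135a-3p and 3.96 after miR-blank, and in SKOV-3 it read 3.98 after miR-135a-3p and 4.07 after miR-blank. The mean difference was −0.06 ± 0.34 (SD, n = 3; limma adjusted p of 0.999), and the SKOV-3 signals and the OVCAR-3 miR-blank signal were below the array median. ADAMTSL5 had −0.15, −0.37 and −0.21 in the order ES-2, OVCAR-3, SKOV-3. ADAMTSL2 and ADAMTSL4, which are known to bind fibrillin microfibrils or their partners, had mean differences of 0.04 and 0.09.

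**Figure D3:**
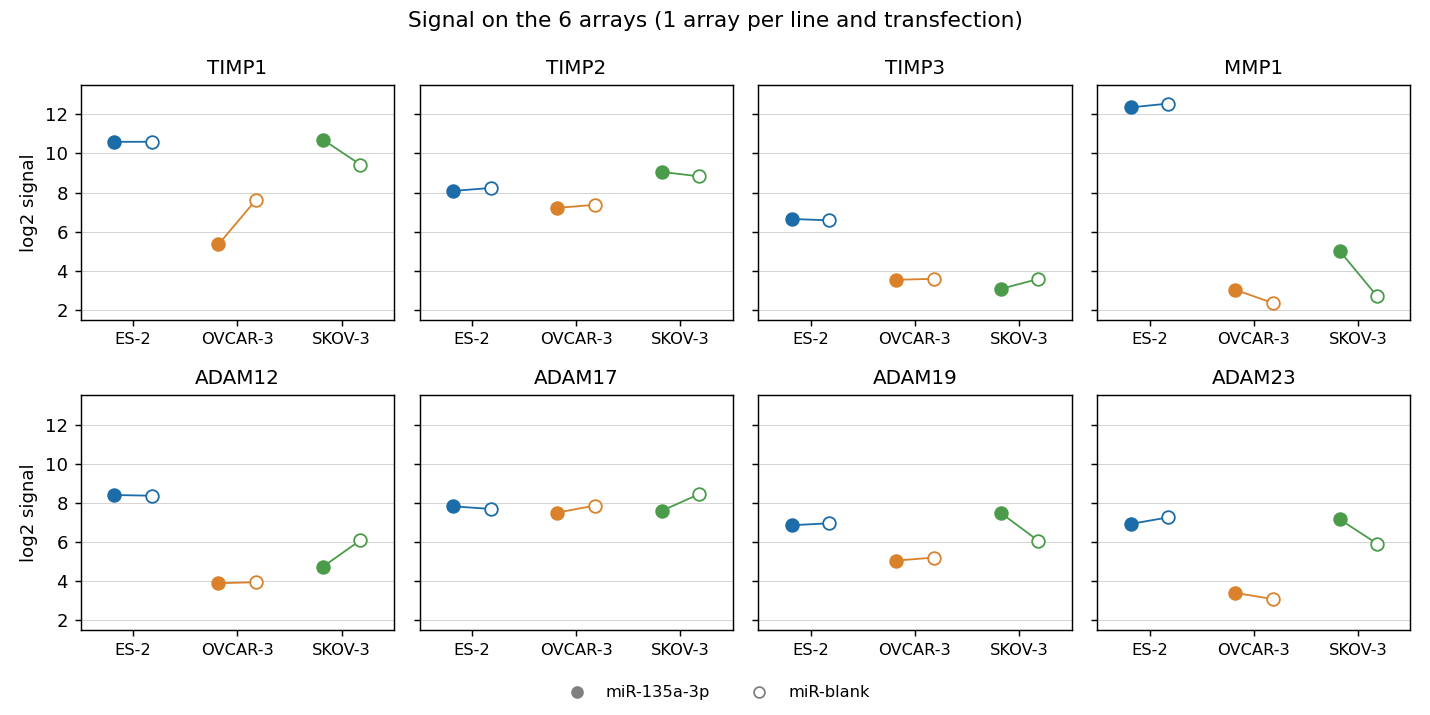
Log2 signal of 8 members on each of the 6 arrays, by cell line (x axis), with filled points for miR-135a-3p, open points for miR-blank and a line joining the arrays of a cell line. TIMP1 is lower after miR-135a-3p in OVCAR-3 and higher in SKOV-3, MMP1, ADAM19 and ADAM23 are higher in SKOV-3, ADAM12 is lower in SKOV-3, and the ES-2 pairs are nearly level.

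The SKOV-3 arrays also differed in markers of the line itself and of other cell types. Of 3 ovarian markers, 2 were past 2-fold there, MSLN with 1.41 and WT1 with 1.0, and PAX8 had −0.68. Of the epithelial markers, KRT8 had 0.62, KRT18 0.59, KRT19 0.18, EPCAM −0.33 and CLDN4 −1.02 in SKOV-3. The mean log2 signal of 5 named leukocyte markers was 5.67 after miR-135a-3p and 5.11 after miR-blank in SKOV-3, beside ranges over the lines of 5.0 to 5.67 after miR-135a-3p and 4.84 to 5.65 after miR-blank. Of the list, 2 markers had a mean of at least 5, CD68 and TYROBP. CD68, which is also a lysosomal protein of many cells, read 10.20 after miR-135a-3p and 7.96 after miR-blank in SKOV-3. CD14 read 3.40 to 3.74 on all arrays, below the array median. The mean of 3 named fibroblast markers was 3.29 after miR-135a-3p and 4.27 after miR-blank in SKOV-3, beside ranges over the lines of 3.29 to 3.77 after miR-135a-3p and 3.53 to 4.27 after miR-blank. LUM read 2.84 after miR-135a-3p and 6.05 after miR-blank there, while DCN read between 1.89 and 2.21 on all arrays. THY1 read 5.01 after miR-135a-3p and 4.86 after miR-blank in SKOV-3, so LUM alone carried the lower list mean there. In ES-2, THY1 had a difference of −1.13. The 3 named endothelial markers had means of 4.2 to 4.30 after miR-135a-3p and 4.11 to 4.39 after miR-blank. The part of these markers and cell types in the SKOV-3 values of MMP1, TIMP1, ADAM12, ADAM19 and ADAM23 was not tested.

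The second question, which the design allows with 2 arrays per line, was how the lines themselves differ. A member was called where limma gave an adjusted p under 0.05 and at least a 2-fold difference. ES-2 had higher signal of MMP1, MMP14, MMP16, ADAM12 and ADAMTSL1 and lower signal of MMP15 than both other lines. OVCAR-3 had lower signal of TIMP1, ADAM12, ADAM19 and ADAM23 than both other lines. SKOV-3 had lower signal of MMP14 and ADAM15 than both other lines. In all, 11 of the 24 tested members were called in at least 1 contrast and 13 in none. The share of all genes called in at least 1 contrast was not computed, so this count has no background beside it.

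Between ES-2 and OVCAR-3, 9 of 24 members were called, 8 higher and 1 lower in ES-2, where 16.5% of all genes tested were called, 8.65% higher and 7.82% lower. Between ES-2 and SKOV-3, 7 were called, 6 higher and 1 lower in ES-2, against 12.1% of all genes, 4.85% higher and 7.29% lower. Between OVCAR-3 and SKOV-3, 7 were called, 2 higher and 5 lower in OVCAR-3, against 14.6% of all genes, 5.60% higher and 8.96% lower. A member that passed the limit only through the line in which it is high had to differ. Among the 16 members with a line mean of at least 5 in all lines, 3, 2 and 4 were called in these contrasts. The share of all genes under the same restriction was not computed, and the percentages above cover an unlike set. The arrays of a line also differ in transfection, and their scatter about a common transfection effect is the error of these tests. Without the SKOV-3 miR-135a-3p array, 11 members were called between ES-2 and SKOV-3, and without either OVCAR-3 array, 4 were called between OVCAR-3 and SKOV-3. With an array left out, its line has 1 array, which the fit takes to vary like the arrays of the other lines.

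**Figure D4:**
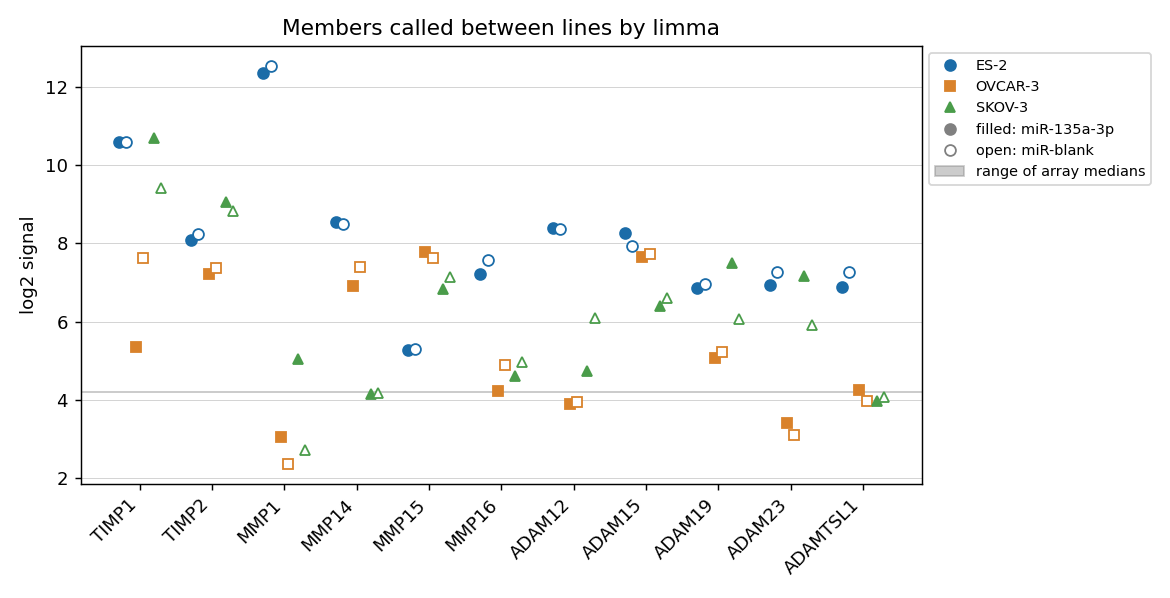
Log2 signal on the 6 arrays for the 11 members called between at least 1 pair of lines, with colour and shape for the line, filled points for miR-135a-3p, open points for miR-blank and a band for the array medians. MMP1, MMP14, MMP16, ADAM12 and ADAMTSL1 stand highest in ES-2, MMP15 stands lowest there, and TIMP1, ADAM12, ADAM19 and ADAM23 stand lowest in OVCAR-3.

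TIMP1 and TIMP2 had their lowest line means in OVCAR-3. TIMP1 had a line mean of 10.59 in ES-2 cells, 6.49 in OVCAR-3 cells and 10.07 in SKOV-3 cells. ES-2 minus OVCAR-3 was 4.11 (SE 0.73, limma adjusted p 0.00771), a 17.2-fold difference, and OVCAR-3 minus SKOV-3 was −3.58 (SE 0.73, limma adjusted p 0.0144). ES-2 minus SKOV-3 was not called, with a difference of 0.52 (SE 0.73, limma adjusted p 0.659). Without the OVCAR-3 miR-135a-3p array, on which TIMP1 was at 5.35, these values were 2.65 (limma adjusted p 0.0201) and −2.12 (limma adjusted p 0.0458). Without the SKOV-3 miR-135a-3p array, OVCAR-3 minus SKOV-3 was −2.37 (limma adjusted p 0.0117) and ES-2 minus SKOV-3 was 1.73 (limma adjusted p 0.0453), while without the SKOV-3 miR-blank array ES-2 minus SKOV-3 was −0.69 (limma adjusted p 0.39).

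TIMP2 had line means of 8.16 in ES-2 cells, 7.30 in OVCAR-3 cells and 8.94 in SKOV-3 cells. It was called between OVCAR-3 and SKOV-3, with −1.65 (SE 0.18, limma adjusted p 0.00136). Its other differences, 0.86 for ES-2 minus OVCAR-3 and −0.78 for ES-2 minus SKOV-3, had limma adjusted p of 0.0141 and 0.0252 but were under 2-fold. TIMP3 was not among the genes tested, and in a fit without the limit on dim genes it was higher in ES-2 cells than in OVCAR-3 by 3.05 (SE 0.20, limma adjusted p 0.000156). In the same fit it was higher in ES-2 cells than in SKOV-3 by 3.29 (SE 0.20, limma adjusted p 0.000217). TIMP3 was the only dim member called in that fit, and it was below the array median in the other lines.

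MMP1 had line means of 12.45 in ES-2 cells, 2.70 in OVCAR-3 cells and 3.87 in SKOV-3 cells. ES-2 minus OVCAR-3 was 9.75 (SE 0.53, limma adjusted p 6.91e-05) and ES-2 minus SKOV-3 was 8.58 (SE 0.53, limma adjusted p 0.000237). Since MMP1 was under the array median for OVCAR-3 and on average in SKOV-3, the size of these differences depends on the floor of the array. MMP1 also passed the limit of 5 through ES-2 alone. OVCAR-3 and SKOV-3 differed by −1.17 (limma adjusted p 0.159), which came to −2.21 (limma adjusted p 0.000433) without the SKOV-3 miR-blank array and to −0.13 (limma adjusted p 0.766) without the SKOV-3 miR-135a-3p array.

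The membrane-type MMPs were split between the lines. MMP14 had line means of 8.52 in ES-2 cells, 7.15 in OVCAR-3 cells and 4.16 in SKOV-3 cells, at the array median in SKOV-3. It was the only member called in all 3 contrasts besides ADAM12, with an ES-2 minus OVCAR-3 difference of 1.37 (SE 0.20, limma adjusted p 0.00329), 4.36 for ES-2 minus SKOV-3 (limma adjusted p 7.37e-05) and 2.99 for OVCAR-3 minus SKOV-3 (limma adjusted p 0.000196). MMP15 ran the other way for ES-2, with 5.29 in ES-2 cells, 7.70 in OVCAR-3 cells and 6.99 in SKOV-3 cells. ES-2 minus OVCAR-3 was −2.42 (SE 0.18, limma adjusted p 0.000216) and ES-2 minus SKOV-3 was −1.70 (limma adjusted p 0.00163). MMP16 had 7.39 in ES-2, against 4.56 in OVCAR-3 cells and 4.78 in SKOV-3 cells, with differences of 2.84 and 2.62 (SE 0.17, limma adjusted p 0.000103 and 0.000292). OVCAR-3 and SKOV-3, neighbours in that order, differed by −0.22 in MMP16 (limma adjusted p 0.399). MMP16 passed the limit of 5 through ES-2 alone, so a difference from ES-2 was built in. MMP17, MMP24 and MMP25 were called in no contrast.

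ADAM12 had line means of 8.39 in ES-2 cells, 3.93 in OVCAR-3 cells and 5.42 in SKOV-3 cells, and was called in all contrasts. ES-2 minus OVCAR-3 was 4.46 (SE 0.35, limma adjusted p 0.000255) and ES-2 minus SKOV-3 was 2.97 (limma adjusted p 0.00235). ADAM12 was below the array median in OVCAR-3, so sizes against that line depend on the floor of the array. The ES-2 signals of ADAM12 also carried it past the limit of 5. OVCAR-3 minus SKOV-3 was −1.49 (limma adjusted p 0.0231). That call was lost without the OVCAR-3 miR-blank array (−1.19, limma adjusted p 0.193), without the OVCAR-3 miR-135a-3p array (−1.79, limma adjusted p 0.0808) and without the SKOV-3 miR-blank array, where the difference was −0.82. ADAM19 had 6.91 in ES-2 cells, 5.13 in OVCAR-3 cells and 6.79 in SKOV-3 cells, with an ES-2 minus OVCAR-3 difference of 1.78 (SE 0.39, limma adjusted p 0.0166) and −1.65 for OVCAR-3 minus SKOV-3 (limma adjusted p 0.0239).

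The ADAM19 calls did not hold on every set of arrays. ES-2 minus OVCAR-3 in ADAM19 was 1.41 (limma adjusted p 0.0588) without the ES-2 miR-blank array and 1.37 (limma adjusted p 0.154) without the OVCAR-3 miR-135a-3p array. OVCAR-3 minus SKOV-3 was −2.06 (limma adjusted p 0.0677) without the OVCAR-3 miR-blank array and −1.25 (limma adjusted p 0.201) without the OVCAR-3 miR-135a-3p array. It was −0.88, under 2-fold, without the SKOV-3 miR-135a-3p array.

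ADAM23 had line means of 7.10 in ES-2 cells, 3.25 in OVCAR-3 cells and 6.54 in SKOV-3 cells. ES-2 minus OVCAR-3 was 3.85 (SE 0.35, limma adjusted p 0.000498) and OVCAR-3 minus SKOV-3 was −3.29 (limma adjusted p 0.00124). ADAM15 had 8.10 in ES-2 cells, 7.69 in OVCAR-3 cells and 6.51 in SKOV-3 cells, with 1.59 for ES-2 minus SKOV-3 (SE 0.19, limma adjusted p 0.0027) and 1.18 for OVCAR-3 minus SKOV-3 (limma adjusted p 0.00641). The second of these was 1.25 (limma adjusted p 0.0638) without the OVCAR-3 miR-135a-3p array and 1.12 (limma adjusted p 0.0792) without the OVCAR-3 miR-blank array, close to its size on all arrays. ADAMTSL1, known as punctin, had 7.08 in ES-2 cells, 4.11 in OVCAR-3 cells and 4.02 in SKOV-3 cells, with 2.97 and 3.06 for ES-2 over OVCAR-3 and SKOV-3 (SE 0.21, limma adjusted p 0.000171 and 0.000312). ADAMTSL1 lay near or below the array median in OVCAR-3 and SKOV-3 and passed the limit through ES-2, so these sizes depend on the floor of the array. ADAM22 and ADAM23 were also past 2-fold between ES-2 and SKOV-3 without the SKOV-3 miR-135a-3p array, with −1.02 (limma adjusted p 0.0044) and 1.18 (limma adjusted p 0.00661), beside −0.78 and 0.55 on all arrays. Without the SKOV-3 miR-blank array these values were −0.54 (limma adjusted p 0.0614) and −0.076 (limma adjusted p 0.841).

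The other tested members had no difference of 2-fold or more between lines. The 6 signals of 10 tested members spanned less than 1 on the log2 scale: ADAM8, MMP23B, MMP24, ADAMTSL2, ADAMTSL4, MMP17, ADAM11, MMP25, ADAM9 and ADAM17. The share of all genes tested with so narrow a span was not computed. ADAM9 had line means of 10.25 in ES-2 cells, 9.55 in OVCAR-3 cells and 10.14 in SKOV-3 cells, and ADAM17 had 7.76, 7.69 and 8.03. ES-2 minus OVCAR-3 in ADAM9 was 0.70 (limma adjusted p 0.0417), a 1.63-fold difference. ADAM10 had 8.98, 8.91 and 9.79, and its differences between SKOV-3 and the others were under 2-fold, with limma adjusted p of 0.037 against ES-2 and 0.0255 against OVCAR-3. ADAM22 had line means of 4.88, 5.51 and 5.66 in that order of lines, and ES-2 minus SKOV-3 was −0.78 (limma adjusted p 0.0318). ADAMTSL5 had 5.67, 6.53 and 5.81, with a difference of −0.85 between ES-2 and OVCAR-3 (limma adjusted p 0.0103) and of 0.71 between OVCAR-3 and SKOV-3 (limma adjusted p 0.022). MMP23B has a near-identical pseudogene copy, and its signal is uncertain. MMP24 and MMP25 have 2 and 3 probe sets that disagree in level, with means of 6.27 and 4.46 for MMP24 and of 6.17, 5.83 and 4.75 for MMP25, and the brightest was used.

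Promoter sequence is shown for TIMP1, ADAM12 and ADAM23, which were called lower in OVCAR-3 than in both other lines, to set their upstream regions side by side. Each run is the 250 bases before the RefSeq start site in GRCh38.p14, written 5′ to 3′ on the strand of the gene. Capitals mark the GC box GGGCGG on either strand and, in TIMP1, the letters TGAGTAA, which resemble an AP-1 site. The TIMP1 run is chrX:47582186-47582435 on the plus strand, the ADAM12 run chr10:126388478-126388727 on the minus strand and the ADAM23 run chr2:206443282-206443531 on the plus strand.
TIMP1: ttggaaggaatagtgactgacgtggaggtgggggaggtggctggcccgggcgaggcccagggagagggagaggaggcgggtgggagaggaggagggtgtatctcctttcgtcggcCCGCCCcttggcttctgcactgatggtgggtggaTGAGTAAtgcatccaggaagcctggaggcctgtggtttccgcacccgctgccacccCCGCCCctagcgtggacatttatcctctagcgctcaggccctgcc
ADAM12: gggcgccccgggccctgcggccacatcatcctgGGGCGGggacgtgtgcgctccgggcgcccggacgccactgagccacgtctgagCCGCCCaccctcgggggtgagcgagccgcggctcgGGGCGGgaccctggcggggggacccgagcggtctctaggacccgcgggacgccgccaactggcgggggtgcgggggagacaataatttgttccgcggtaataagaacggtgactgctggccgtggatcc
ADAM23: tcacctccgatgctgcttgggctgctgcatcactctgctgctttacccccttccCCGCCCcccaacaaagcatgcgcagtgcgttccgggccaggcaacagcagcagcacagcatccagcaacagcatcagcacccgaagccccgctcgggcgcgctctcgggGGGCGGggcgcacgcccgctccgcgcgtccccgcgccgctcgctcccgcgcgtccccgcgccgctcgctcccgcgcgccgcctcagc

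TIMP1 has 64.8% G and C and 12 CpG dinucleotides in this window, ADAM12 has 73.6% and 31, and ADAM23 has 73.6% and 33, beside medians of 58.0% and 11 over 27305 RefSeq promoters. ADAM19, also lowest in OVCAR-3, has 76.4% and 21 and no match to any motif searched. Both strands were searched in the 31 promoters of the family that the RefSeq table holds, out of 47. The MMP1 promoter was not among them, so MMP1 was not searched for any motif. GGGCGG was found in 19 of them, and in 42.3% of all promoters. TGAGTAA was put into the search for TIMP1, so its match there is not a result. Its first base lies at −101 from the TIMP1 start, and TGAGTAA was found in no other member and in 2.25% of all promoters. The AP-1 letters TGANTCA, which share their first bases with it, were found in MMP10 and MMP20 and in 6.6% of all promoters, and TATAAA in 6 members and 11.1% of all. These are matches of letters and not shown to be sites.

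Genes that act with the family were read from lists of activators, inhibitors, partners and substrates. limma called 0 genes of any of these lists for transfection. Their calls between lines stand beside 16.5% of all genes for ES-2 minus OVCAR-3, 12.1% for ES-2 minus SKOV-3 and 14.6% for OVCAR-3 minus SKOV-3. At an unadjusted p under 0.05 there was 1 gene among the protease inhibitors, 2 among the matrix substrates and 0 in the other lists. Over all 8620 genes tested there were 251. In the list of proteases that activate pro-enzymes, 6 genes were tested, with a median of mean differences of 0.12 beside −0.0097 over all genes. Its convertase PCSK6 and its surface protease HPN had mean differences of 0.25 ± 0.06 and 0.19 ± 0.04 (SD, n = 3). Between the lines 0 of its genes were called in any contrast.

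Of the other protease inhibitors, 4 were tested, with a median mean difference of 0.02. RECK, a membrane-anchored inhibitor of MMPs, read 5.32 after miR-135a-3p and 5.51 after miR-blank in ES-2 cells. OVCAR-3 cells gave 5.46 after miR-135a-3p and 6.0 after miR-blank, and in SKOV-3 it read 6.39 after miR-135a-3p and 7.12 after miR-blank. It was lower after miR-135a-3p in all lines, with a mean of −0.49 ± 0.27 (SD, n = 3; limma adjusted p of 0.999). CST6, an inhibitor of cysteine proteases, had a mean of 0.13. RECK was lower in ES-2 cells than in SKOV-3 by a log2 difference of −1.34 (limma adjusted p 0.00477) and lower in OVCAR-3 cells than in SKOV-3 by −1.03 (limma adjusted p 0.0103). The list had 1 gene higher in ES-2 cells than in OVCAR-3, 2 lower in ES-2 cells than in SKOV-3 and 2 lower in OVCAR-3 cells than in SKOV-3.

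Of the surface receptors that dock MMPs and TIMPs, 5 were tested, with a median mean difference of −0.03. LCN2, a partner of MMP9, had −0.34 ± 0.72 (SD, n = 3) and −1.13 in SKOV-3, and CD44, which holds MMP14 and MMP9 at the surface, had 0.28 ± 0.28 (SD, n = 3). CD44 had line means of 8.06 in ES-2 cells, 2.92 in OVCAR-3 cells and 7.16 in SKOV-3 cells, and was called for ES-2 minus OVCAR-3, with 5.15 (limma adjusted p 2.35e-05), and for OVCAR-3 minus SKOV-3, with −4.25 (limma adjusted p 6.61e-05). Its OVCAR-3 signals were below the array median, so these sizes depend on the floor of the array. Between ES-2 and OVCAR-3, 1 receptor was higher and 1 lower, and between ES-2 and SKOV-3, 0 were called.

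Among the tetraspanins and rhomboid-like proteins that steer ADAM10 and ADAM17, 9 were tested, with a median mean difference of −0.15 and a median of −0.36 in SKOV-3. TSPAN15, which guides ADAM10, read 6.16 after miR-135a-3p and 7.20 after miR-blank in SKOV-3 and had a mean of −0.44 ± 0.54 (SD, n = 3), and TSPAN14 had −0.38 ± 0.38 (SD, n = 3). TSPAN33, named after its value was seen, was also past 2-fold in SKOV-3, with −1.20. The list had 2 genes higher and 1 lower in ES-2 cells than in OVCAR-3, 1 higher and 2 lower in ES-2 cells than in SKOV-3, and 1 lower in OVCAR-3 cells than in SKOV-3.

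Of the ligands and receptors released by ADAM10 and ADAM17, 12 were tested, with a median mean difference of 0.03. TNF, the cytokine for which ADAM17 is named a converting enzyme, read 4.68 after miR-135a-3p and 7.25 after miR-blank in SKOV-3. In ES-2 it read 4.40 after miR-135a-3p and 4.48 after miR-blank, and in OVCAR-3 it read 4.51 after miR-135a-3p and 4.70 after miR-blank, all near the array medians. Its mean difference was −0.94 ± 1.41 (SD, n = 3; limma adjusted p of 0.999), and MICB, a ligand of natural killer cells, had −0.37 ± 0.35 (SD, n = 3). Between the lines this list had 5 genes higher and 3 lower in ES-2 cells than in OVCAR-3, 3 and 1 against SKOV-3, and 2 and 4 in OVCAR-3 against SKOV-3. In OVCAR-3, EREG read 3.78 after miR-135a-3p and 3.88 after miR-blank, NRG1 read 3.85 after miR-135a-3p and 3.45 after miR-blank, and ALCAM read 4.44 after either, below or near the array median, as CXCL16 was in ES-2 with a line mean of 4.14.

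The other metzincin proteases had 1 tested gene, BMP1, a procollagen protease, with a mean difference of 0.02 and no call between the lines. Of the matrix substrates of ADAMTS proteases, 5 were tested, with a median mean difference of 0.08. Fibrillin, FBN1, read 7.20 after miR-135a-3p and 6.69 after miR-blank in ES-2 cells. In OVCAR-3 it read 4.63 after miR-135a-3p and 4.35 after miR-blank, and in SKOV-3 it read 7.55 after miR-135a-3p and 4.66 after miR-blank. Versican, VCAN, read 5.12 after miR-135a-3p and 7.0 after miR-blank in ES-2 cells. Its signal in OVCAR-3 was 2.94 after miR-135a-3p and 3.32 after miR-blank, and in SKOV-3 it read 6.07 after miR-135a-3p and 6.83 after miR-blank. FBN1 was thus higher and VCAN lower after miR-135a-3p in all lines, with means of 1.22 ± 1.45 and −1.0 ± 0.78 (SD, n = 3; limma adjusted p of 0.999 for each). Both were higher in ES-2 cells than in OVCAR-3, FBN1 by 2.46 (limma adjusted p 0.0239) and VCAN by 2.93 (limma adjusted p 0.00146), and VCAN was lower in OVCAR-3 cells than in SKOV-3, with −3.32 (limma adjusted p 0.00115). VCAN was below the array median and FBN1 near it in OVCAR-3, which limits these sizes too. Between ES-2 and SKOV-3, 1 gene of the list was called, lower in ES-2.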

How the data were processed

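The authors deposited log2 signals for 53617 probe sets on each array, from total RNA. The submitters' processing notes name RMA, Affymetrix Expression Console 1.4 and, as a further program, Transcriptome Analysis Console 3.0, without role or order. RMA makes the arrays' distributions equal, so a shift of most genes one way would be removed. Precision is limited by the small number of arrays. The log2 scale was read from the values and the named method, and no genome build for the probe sets is given in the labels.

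The platform annotation gave 16098 probe sets 1 symbol, 0 several and 37519 none. All 16098 were matched by gene ID to RefSeq (GRCh38.p14), which gave 14884 genes. The probe set with the highest mean was kept for a gene, and genes with a mean log2 of at least 5 entered a two-sided limma fit (lmFit, then eBayes, limma 3.58.1 under R 4.3.3) with p-values adjusted by Benjamini-Hochberg over 8620 genes and called under 0.05. Transfections were compared with the cell line as a block, since the arrays of a line come from that line. The 2 arrays' deviations from their group means had a correlation of 0.904 for ES-2, 0.91 for OVCAR-3 and 0.759 for SKOV-3. Lines were compared with the transfection as a block, at 2-fold or more. The procedure was tested on simulated data.

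All 6 values were given for TIMP genes, for members past 2-fold in a line or among the 5 largest mean differences, for members with the same sign and at least 0.2 in all lines, and for up to 4 members a line called against both other lines. Lists gave their 2 largest mean differences. The members, lists and rules were chosen with earlier results of these data known. The alternatives were other filters, further normalization, the fit without the block, no variance moderation, an intensity trend in the variances, all probe sets, averaging a gene's probe sets, other fold limits and each line or array left out. Left out by the naming rule were 6 pseudogenes and 1 antisense gene.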

Additional observations from a re-analysis of the deposited data

Results flagged for a closer look

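TIMP1 differed past 2-fold in opposite directions between lines. Its log2 difference, miR-135a-3p minus miR-blank, was −2.28 in OVCAR-3 and 1.28 in SKOV-3, on signals of 5.35 after miR-135a-3p and 7.63 after miR-blank in OVCAR-3 and of 10.71 after miR-135a-3p and 9.43 after miR-blank in SKOV-3. The difference between the lines was not tested, because a line has only 1 array for each transfection. The limit of 2-fold in opposite directions was chosen after results of these data were known. Over all genes tested, 9 genes parted in this way between OVCAR-3 and SKOV-3. With 3 arrays per transfection, no array was checked as an outlier within a group.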

How the results depend on the processing

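limma called 0 members for transfection under every alternative, including no replicate block, where 0 had an unadjusted p under 0.05, and no other call changed without the block. Over all genes, limma called 4 without SKOV-3 and 0 without variance moderation. Members past 2-fold numbered 3 in OVCAR-3 at 1.5-fold, against 1, and 3 in SKOV-3 with a mean of at least 6, against 5, as fewer genes are tested there. With that mean, 5 members were called between ES-2 and OVCAR-3, against 9, and 4 between ES-2 and SKOV-3, against 7. Leaving out each array in turn gave 8 to 9, 7 to 11 and 4 to 8 calls in ES-2 minus OVCAR-3, ES-2 minus SKOV-3 and OVCAR-3 minus SKOV-3.

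Mean transfection differences that changed sign when a line was left out, all without a call, ran as follows: ADAM15 −0.14 to 0.13, ADAM19 −0.13 to 0.66, ADAM23 −0.0085 to 0.78, ADAMTSL1 −0.24 to 0.10, MMP14 −0.26 to 0.015, TIMP1 −1.14 to 0.64 and TIMP2 −0.15 to 0.039. Uncalled line differences did so with an array left out. For ES-2 minus SKOV-3 the ranges were −0.65 to 0.90 in ADAM19, −0.076 to 1.18 in ADAM23 and −0.69 to 1.73 in TIMP1. For OVCAR-3 minus SKOV-3 they were −0.39 to 0.088 in ADAM22 and −0.18 to 0.36 in ADAMTSL1. Of values of named members under the alternatives, 553 kept direction and side of the threshold, 6 passed newly, 10 no longer passed and 16 changed sign. Causes were not tested. Signals near or below the array median limit the sizes given for MMP1, MMP14, MMP16, ADAM12, ADAM23, ADAMTSL1, TIMP3, CD44, VCAN and FBN1.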

Other observations

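Of the 8 probe sets of pseudogene and antisense symbols left out of the family, ADAMTS9-AS2 had the largest difference, with 4.32 after miR-135a-3p and 3.64 after miR-blank in ES-2, near or below the array medians. ADAMTS7P1 read 5.69 after miR-135a-3p and 5.18 after miR-blank in OVCAR-3 on its brighter probe set. MMP23A, the near-identical copy of MMP23B, read between 6.50 and 6.81 on all arrays. These values have no replicate within a line.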
